A study of Mus musculus with 8 samples.

Results

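Neurons in which the Arc promoter had been active after auditory fear conditioning were compared with bulk tissue of the same cortical area. The FC Arc-dVenus+ pools were 3 groups of manually picked Venus-positive cells from the temporal association cortex (TeA) of male C57BL/6 mice, postnatal day 60 to 90, with 1 copy of the Arc-dVenus transgene (Arc-dVenus +/-). In this line the Arc promoter drives a destabilized Venus fluorophore, so a cell glows for some hours after Arc is switched on. The mice of the pools were fear conditioned (FC) with 7 pairings of a 10-s, 6 kHz tone and a 1-s, 0.5 mA footshock and were killed 6 h later. The bulk-tissue libraries were 3 samples of whole TeA from mice of the same line and age, also at 6 h, of which 1 was fear conditioned and 2 had received 7 footshocks without tones (shock only). By the study's account, the tissue went through the same protease treatment as the tissue for sorting. Together these are 6 of the 8 samples of the series. The other 2, shock-only Arc-dVenus+ pools, were left out of the comparison. Of the 15437 genes in the count table, the 12493 with a summed level of at least 20 CPM (counts scaled to the library's total) over the 8 libraries were tested.

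The pools are called FC39, FC40 and FC23 after their cell numbers, as the labels and the study's legend give them, although the sources differ on how many cells were pooled. Pool values are given in that order, and bulk-tissue values as the FC mouse followed by the shock-only mice. Whether a mouse that gave tissue also gave a pool is not stated in the sources used here, and p-values measure the spread between these samples. GEO labels every sample as cortical neurons, although the bulk tissue holds glial, vascular and blood transcripts as well. Totals were 13319842 to 22089634 counts in the pools and 7110598 to 9846374 counts in bulk tissue. Of the tested genes, 256 to 396 had no count in a pool, against 5 to 8 in a bulk-tissue library. RNA of a few picked cells and RNA of tissue were both amplified, and an effect of the small input cannot be told apart from a difference in cell type. In these libraries, fewer cells of a type and less RNA per cell cannot be told apart either.

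Arc is an immediate-early gene of excitatory neurons. Synaptic activity raises its transcription within minutes, and its protein promotes the removal of AMPA receptors from the synapse. Activity first switches on transcription factors such as Fos, Egr1 and Npas4, whose mRNAs are short-lived, and later effector genes such as Bdnf, Nptx2 and Inhba, whose proteins act at synapses or are secreted. A comparison of sorted neurons with tissue holds genes of both activity and cell type, since cortical tissue also has interneurons, astrocytes, oligodendrocytes, microglia and vessels.

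Of the 12493 genes, 533 were enriched in the FC pools (4.27%) and 1115 were de-enriched (8.92%). Enriched means an adjusted p below 0.05 in edgeR's quasi-likelihood test and a log2 fold change above 1, which is a 2-fold difference, and de-enriched means the same with a log2 fold change below -1. Rose and fell are used for such genes only, and SE stands for the standard error on the log2 scale. The median fold was 2.40 among enriched genes and 5.06 among de-enriched genes, and 47 and 688 of them differed by more than 4-fold. A further 718 genes had an adjusted p below 0.05 with a difference under 2-fold. The FC pools and bulk tissue did not overlap for 5141 genes (41.2%), among them 526 of the enriched and all 1115 of the de-enriched genes.

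The split depends on the scaling, on the libraries in the fit and on a term for behavior. The median log2 fold change over all tested genes was 0.08 with TMM scaling and -0.19 with library size alone. With library size alone 208 genes were enriched and 1393 de-enriched, so higher calls made up 12.99% of all calls in place of 32.3%. With behavior as a term in the fit, 110 genes were enriched and 458 de-enriched. Of the lists described below, those of layer 5, layer 6, sodium channel, cholesterol, motor protein, endoplasmic reticulum stress and circadian clock genes then had no call, and no member rose among MAP kinase inhibitors and proteasome subunits. Against the tissue of the FC mouse alone, a single bulk-tissue library, the counts were 22 and 105. Leaving out the tissue of the FC mouse gave 244 and 542, the first shock-only tissue 263 and 582, and the other shock-only tissue 304 and 604. With any of the 3 pools left out the counts were between 715 and 795 enriched and between 1545 and 1553 de-enriched.

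**Figure D1:**
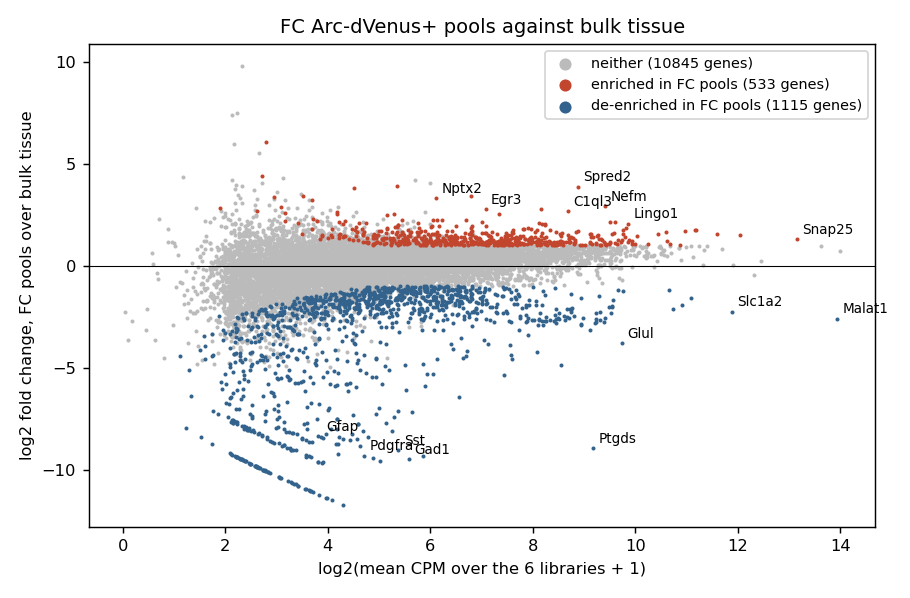
Log2 fold change of the FC pools over bulk tissue (vertical axis) against log2 of the mean CPM over the 6 libraries plus 1 (horizontal axis), with 1 point for each of the 12493 tested genes. The 533 enriched genes lie within a few log2 units of 0, while part of the 1115 de-enriched genes reach below -8, where genes with no or few counts in the pools form straight lines.

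Effector genes of neuronal activity were often higher in the pools 6 h after conditioning. The share of immediate-early transcription factors that rose was near that of all tested genes. Of 29 tested activity-regulated effectors, 11 rose and 1 fell, with a median log2 fold change of 0.89 against 0.08 over all tested genes. These are 37.9% and 3.45%, against 4.27% and 8.92% of all tested genes. The counts of the lists below are to be read beside these shares of all tested genes. Of 22 immediate-early transcription factors, Egr3 rose and none fell, with a median of 0.27. Egr3 is 4.55% of that list, near the 4.27% of all tested genes that were enriched. DESeq2 gave 3 enriched factors, and leaving out single libraries gave 1 to 3. The median of this list was -0.00 with library size alone and -0.09 without pool FC23. The difference between the lists was not tested.

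Inhba encodes the subunit of activin A, a secreted growth factor of the TGF-beta family, and had the largest change of the called effectors. It measured 164, 248 and 184 CPM in the FC pools, against 22.9, 18.2 and 27.002 CPM in bulk tissue. The lowest pool was far above the highest bulk-tissue library, and the difference was 10.5-fold (3.40 on the log2 scale, SE 0.26, edgeR adjusted p = 0.00025). Nptx2, a pentraxin that gathers AMPA receptors at excitatory synapses, measured 92.3, 119.97 and 154 CPM in the FC pools, against 8.66, 18.2 and 18.001 CPM in bulk tissue. Its groups were also far apart (3.29 on the log2 scale, SE 0.37, edgeR adjusted p = 0.0013). Egr3, a zinc finger factor of the Egr family, measured 286, 189.7 and 209.6 CPM in the FC pools, against 30.5, 39.8 and 49.1 CPM in bulk tissue. It was 6.85-fold higher, with no overlap (2.78 on the log2 scale, SE 0.24, edgeR adjusted p = 0.00046).

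Arc itself, whose promoter drives the reporter used for picking, measured 643, 329 and 424 CPM in the FC pools, against 81.8, 158 and 173 CPM in bulk tissue. All pools lay above all bulk-tissue libraries (2.01 on the log2 scale, SE 0.34, edgeR adjusted p = 0.0063), and the lowest bulk-tissue level was that of the FC mouse. Ptgs2, the inducible cyclooxygenase, measured 132, 169 and 188 CPM in the FC pools, against 35.6, 45.8 and 42.6 CPM in bulk tissue. Bdnf, the neurotrophin that binds TrkB, measured 127, 96.5 and 88.96 CPM in the FC pools, against 19.6, 33.01 and 26.7 CPM in bulk tissue. Both genes were well separated, with log2 fold changes of 2.25 and 2.23. Sorcs3, a sorting receptor of the postsynaptic site, measured 189, 135 and 277 CPM in the FC pools, against 54.7, 61.4 and 48.2 CPM in bulk tissue, and FC23 was the highest pool.

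Scg2, the dense-core vesicle granin secretogranin II, varied little within groups. It measured 412, 369.5 and 324 CPM in the FC pools, against 124, 125 and 134 CPM in bulk tissue (1.79 on the log2 scale, SE 0.13, edgeR adjusted p = 0.00020). Nrn1, which encodes neuritin, Vgf, a neuropeptide precursor, and Rgs2, which shortens the signal of Gq-coupled receptors, rose by 1.23, 1.27 and 1.27 on the log2 scale. Gadd45b, a gene of active DNA demethylation, rose by 2.09 at a level of 10.6 to 20.6 CPM in the pools, against 2.25 to 6.70 CPM in bulk tissue. Homer1, a postsynaptic scaffold, measured 289, 233 and 208 CPM in the FC pools, against 174, 178 and 170.03 CPM in bulk tissue. Its groups did not overlap, but the difference was under 2-fold (0.74 on the log2 scale, SE 0.15, edgeR adjusted p = 0.012). The member that fell was Tll1, a metalloprotease, with 3.40 to 5.26 CPM in the pools and 14.2 to 21.9 CPM in bulk tissue.

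Several of the classical first factors varied widely between pools, with groups that overlapped. Fos, which pairs with Jun in the AP-1 dimer, measured 14.2, 0.225 and 36.4 CPM in the FC pools, against 7.99, 17.3 and 15.8 CPM in bulk tissue. Pool FC40 was near zero and FC23 above all bulk tissue (0.57 on the log2 scale, SE 1.20, edgeR adjusted p = 0.79). Fosb, a close relative of Fos, measured 56.5, 5.26 and 36.4 CPM in the FC pools, against 17.7, 16.2 and 16.5 CPM in bulk tissue, and Nr4a2, an orphan nuclear receptor, 162, 15.8 and 57.4 CPM in the pools, against 35.2, 12.8 and 12.9 CPM in bulk tissue. In both FC40 was the lowest pool and FC39 the highest, and neither passed (adjusted p = 0.30 and 0.10 from edgeR). Junb and Npas4 were highest in FC23, at 67.4 and 133 CPM, with the other pools between 9.91 and 14.3 CPM for Junb and between 37.0 and 45.8 CPM for Npas4. Egr1 measured 391, 194 and 271 CPM in the FC pools, against 197, 254 and 307 CPM in bulk tissue, with overlapping groups. Jun and Nr4a1 were lower in every pool than in every bulk-tissue library, but had no call (adjusted p = 0.21 and 0.42 from edgeR). Jun measured 20.6, 3.45 and 3.80 CPM in the FC pools, against 28.7, 24.8 and 34.0 CPM in bulk tissue. Over the whole list the median SD of log2(CPM + 1) was 1.00 among pools and 0.31 among bulk-tissue libraries, and over the effectors it was 0.37 and 0.20.

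**Figure D2:**
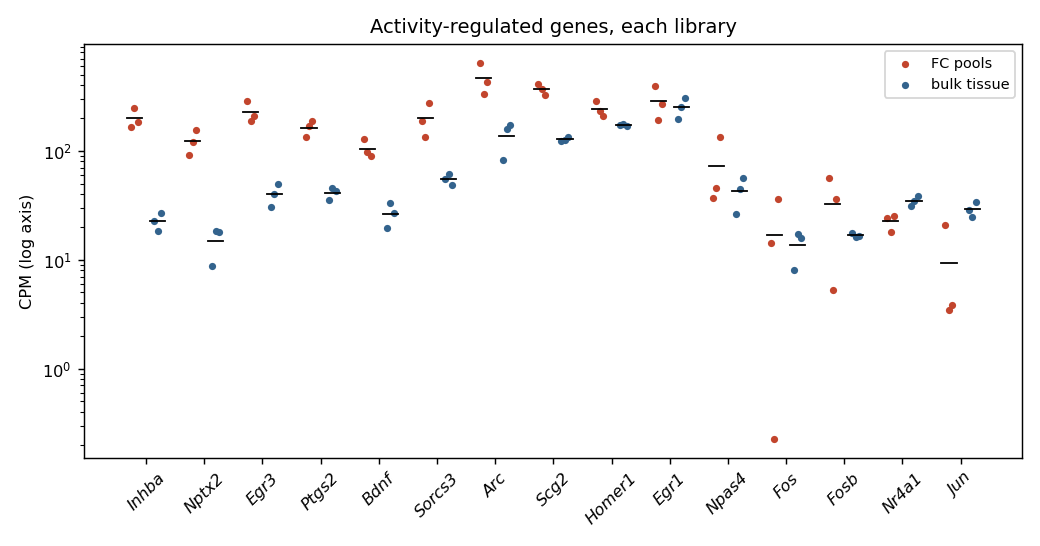
Level in CPM (vertical log axis) of 15 activity-regulated genes in each of the 3 FC pools (left of each pair) and the 3 bulk-tissue libraries (right), with a bar at the group's mean. The groups are apart from Inhba to Homer1, whereas Egr1, Npas4, Fos and Fosb overlap, with 1 pool at 0.225 CPM for Fos. Nr4a1 and Jun are lower in every pool than in every bulk-tissue library.

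The 250 bases before the start sites of 2 of these genes are shown because each holds a motif that was searched for, in capitals. They are from RefSeq on GRCm38.p6, a later build than that of the counts, on the gene's strand. The motifs were the cAMP response element TGACGTCA, which CREB binds, the AP-1 site TGACTCA, the TATA box TATAAA and the CArG box of serum response factor, all on both strands. Scg2 has the letters of the cAMP response element 68 bases before its start (chr1:79440027-79440276, minus strand). Inhba has the letters TATAAA 91 bases before its start (chr13:16011601-16011850, plus strand), and whether they act as a TATA box was not tested.
Scg2: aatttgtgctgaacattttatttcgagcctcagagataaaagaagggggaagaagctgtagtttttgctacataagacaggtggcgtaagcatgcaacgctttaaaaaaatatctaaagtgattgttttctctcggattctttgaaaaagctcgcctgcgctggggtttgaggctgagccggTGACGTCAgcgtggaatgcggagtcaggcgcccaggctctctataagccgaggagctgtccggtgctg
Inhba: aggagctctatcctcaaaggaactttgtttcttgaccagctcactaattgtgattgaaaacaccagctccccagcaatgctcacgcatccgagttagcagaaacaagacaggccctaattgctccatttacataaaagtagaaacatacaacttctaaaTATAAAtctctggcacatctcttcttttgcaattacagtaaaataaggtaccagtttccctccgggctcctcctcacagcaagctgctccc
Of 32851 such windows, 1.55% hold the cAMP response element, 4.46% the AP-1 site, 12.4% the TATA box and 1.47% the CArG box. Of the 15 enriched members of the immediate-early, effector and MAP kinase lists, 10 had a window in the table. Among those 10, Scg2 had the cAMP response element, Inhba and Gadd45b the TATA box, and none the AP-1 site or the CArG box. Such a match is a description of letters, and no match says only that the letters are not in this window.

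Genes that restrain the MAP kinase cascade gave mixed results. Of 14 tested phosphatases and Sprouty-family inhibitors, 3 rose and 1 fell, with a median of 0.40, and with library size alone none rose. Spred2, an inhibitor of the Ras-to-Raf step, measured 142, 192 and 2276 CPM in the FC pools, against 88.9, 61.9 and 66.7 CPM in bulk tissue. Pool FC23 stood far above the others, and without FC23 the log2 fold change of Spred2 was 1.46 in place of 3.87. Dusp6 and Dusp7, phosphatases of ERK, rose by 1.25 and 1.16. Spry4, a Sprouty, had no count in any pool, against 8.39 to 15.6 CPM in bulk tissue, and was at least 168-fold lower, with 3 counts over the pools as the floor.

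Part of the genes of neurons in general and of excitatory neurons rose. Of 18 pan-neuronal genes 7 rose and of 17 excitatory neuron markers 8 rose, with none falling in either list and medians of 0.73 and 1.02. With library size alone 4 and 2 rose, and with DESeq2 8 and 8. Slc17a7, which loads glutamate into vesicles of cortical excitatory neurons, measured 903, 689 and 1011 CPM in the FC pools, against 514, 459.97 and 516 CPM in bulk tissue. The groups were apart at a 2.09-fold difference (1.07 on the log2 scale, SE 0.16, edgeR adjusted p = 0.0036). Snap25, a SNARE of vesicle fusion, measured 11189, 16011 and 9271 CPM in the FC pools, against 5184, 6204 and 6635 CPM in bulk tissue. Sv2b, a glycoprotein of synaptic vesicles, varied little within groups, with 1484, 1611 and 1536 CPM in the FC pools, against 854, 901 and 913 CPM in bulk tissue. Camk2a, a kinase of excitatory synapses, had the opposite direction within the 2-fold limit, with 3255 to 4316 CPM in the pools and 5964 to 6774 CPM in bulk tissue (-0.47 on the log2 scale, SE 0.12, edgeR adjusted p = 0.032).

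Neuronal intermediate filaments, which set the caliber of axons, were among the largest increases. Nefm, the medium neurofilament chain, measured 798, 1807 and 931 CPM in the FC pools, against 136, 174 and 253 CPM in bulk tissue. Ina, alpha-internexin, measured 323, 183 and 293 CPM in the FC pools, against 45.7, 50.1 and 68.5 CPM in bulk tissue. Nefl, the light chain, measured 1061, 1364 and 1222 CPM in the FC pools, against 296, 308 and 399 CPM in bulk tissue. All of them had separate groups, with log2 fold changes of 2.92, 2.54 and 2.13. Exons of Nefm and Nefl overlap on opposite strands in GENCODE M1, and those of Ina overlap a neighbor's, so their counts may be partly shared. Nefh, the heavy chain, had 8.18 to 14.7 CPM in the pools and 15.97 to 21.4 CPM in bulk tissue, with no call (-0.42 on the log2 scale, SE 0.39, edgeR adjusted p = 0.52).

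Other genes with the largest increases have varied roles. C1ql3, a secreted C1q-like protein of excitatory synapses, measured 761, 744 and 574 CPM in the FC pools, against 128, 136 and 125 CPM in bulk tissue. Pter, a gene related to phosphotriesterases, measured 501, 517 and 429 CPM in the FC pools, against 85.8, 93.8 and 78.2 CPM in bulk tissue. Both had narrow groups far apart (log2 fold changes 2.67 and 2.75, adjusted p = 7.4e-05 for both from edgeR). These genes lie end to end on opposite strands with 3 bases between their exons, and since use of strand in counting is not given, their counts may not be independent. Exons of Glul, Sulf2, Psmc3, Fdft1 and Kcnh7 overlap those of a gene on the other strand, so that their levels are uncertain as well. Sema5b, a semaphorin, and Grp, the gastrin-releasing peptide, rose by 2.52 and 2.50, with the highest value in FC40 for both, 111 and 101 CPM, against 10.4 to 16.1 and 10.5 to 14.9 CPM in bulk tissue.

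Layer markers did not move as one. Of 12 tested markers of layer 2/3, 6 rose and none fell, with a median of 0.99. Wfs1, an endoplasmic reticulum protein of superficial neurons, also varied little, with 665, 624 and 704 CPM in the FC pools, against 266, 249.8 and 244 CPM in bulk tissue (1.65 on the log2 scale, SE 0.11, edgeR adjusted p = 0.00014). Cux2, a homeobox factor of upper layers, measured 178, 202 and 267 CPM in the FC pools, against 110.3, 109.7 and 146 CPM in bulk tissue, and it rose by 1.09. Stard8 and Dgkb rose by 1.30 and 1.39, and the other members that rose, Inhba and Ptgs2, are in the effector list as well. None of 7 layer 4 markers had a call, with 2 at an unadjusted p below 0.05 in edgeR's test and 1 that DESeq2 called de-enriched.

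Layer 5 markers were split. Of 15 tested, 2 rose and 4 fell, with a median of -1.40, and 0 to 5 fell when single libraries were left out. With behavior as a term none of the 15 had a call. Ldb2, a cofactor of LIM proteins, measured 91.7, 71.1 and 98.4 CPM in the FC pools, against 42.4, 34.1 and 38.4 CPM in bulk tissue. Cdh13, T-cadherin, measured 140.4, 59.1 and 297 CPM in the FC pools, against 64.6, 47.1 and 52.9 CPM in bulk tissue, so that FC40 lay within the range of bulk tissue. Fezf2, the selector of subcerebral projection neurons, had no count in any pool, against 4.33, 2.64 and 4.36 CPM in bulk tissue, and was at least 53.2-fold lower. Etv1, a factor of layer 5 neurons, measured 7.40, 12.5 and 16.2 CPM in the FC pools, against 50.6, 49.1 and 52.2 CPM in bulk tissue, with every pool below the bulk tissue. Rbp4, a retinol carrier, and Sulf2, an extracellular sulfatase, fell by 3.21 and 3.71 on the log2 scale.

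Of 8 layer 6 markers 2 rose and none fell, but with behavior as a term none rose and with library size alone 1. Car12, a membrane-bound carbonic anhydrase, measured 28.1, 137 and 54.6 CPM in the FC pools, against 8.93, 4.37 and 4.64 CPM in bulk tissue (3.90 on the log2 scale, SE 0.67, edgeR adjusted p = 0.0069). Its levels in the pools were spread widely, with FC40 the highest. Sez6, a neuronal membrane protein, rose by 1.20, although its exons hold 16 bases of a repeat described further on.

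Potassium channels and the hyperpolarization-activated HCN channels set how easily a neuron fires. Of 68 tested subunits 11 rose and 4 fell, with a median of 0.37. These are 16.2% and 5.88%, against 4.27% and 8.92% of all tested genes. With library size alone 4 rose and 7 fell, with behavior as a term 2 rose and 3 fell, and against the tissue of the FC mouse alone none had a call. Kcnv1, a silent subunit that assembles with other potassium channels, measured 296, 292 and 249.98 CPM in the FC pools, against 104, 128 and 102 CPM in bulk tissue. Its groups were apart at a 3.00-fold difference (1.59 on the log2 scale, SE 0.15, edgeR adjusted p = 0.00073). Kcnb2, a delayed rectifier, measured 110.4, 81.01 and 108 CPM in the FC pools, against 57.9, 51.1 and 46.8 CPM in bulk tissue, so all pools were above all bulk tissue for both genes.

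Among other potassium channels, the A-type Kcna4 and Kcnd3 rose by 1.53 and 1.18 and the M-current subunit Kcnq5 by 1.12. The inward rectifiers Kcnj2 and Kcnj3 rose by 1.39 and 1.04, the Kv1 channel Kcna3 by 2.14 and the ERG channel Kcnh2 by 1.80. Kcnj4, a further inward rectifier, measured 63.6, 31.2 and 94.6 CPM in the FC pools, against 33.7, 25.999 and 27.6 CPM in bulk tissue and did not pass (1.38 on the log2 scale, SE 0.40, edgeR adjusted p = 0.051). Kcnh7 had separate groups, but a log2 fold change of 0.84 that was under the limit, and its exons hold the repeat described further on. Kcnj10, the Kir4.1 channel of astrocytes, measured 4.35, 4.05 and 15.1 CPM in the FC pools, against 132, 177 and 180.2 CPM in bulk tissue, and it fell by 4.09. Kcnn1, Kcnk6 and Kcnj15 fell by 2.23, 1.86 and 1.24.

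Of 9 sodium channel subunits, Scn8a rose, a sodium channel of the axon initial segment, by 1.05, and with library size alone none did. Of 21 calcium channel subunits, 3 rose and 1 fell (14.3% and 4.76%). Cacna1e, the R-type pore, measured 1281, 1074 and 879 CPM in the FC pools, against 544, 535 and 544 CPM in bulk tissue, Cacng3 and Cacnb1 rose by 1.17 and 1.71, and Cacna2d2 fell by 1.42. With library size alone 1 of them rose.

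NMDA receptors pass calcium when glutamate meets a depolarized synapse, and 3 of their subunits rose. Grin2b measured 972, 1016 and 1179.5 CPM in the FC pools, against 466, 394 and 444 CPM in bulk tissue (1.54 on the log2 scale, SE 0.13, edgeR adjusted p = 0.00043). Grin1, the obligatory subunit, measured 894, 684 and 757 CPM in the FC pools, against 444, 403 and 435 CPM in bulk tissue, and Grin2a 358, 419 and 331 CPM in the pools, against 197, 187 and 195 CPM in bulk tissue. In each the lowest pool was above the highest bulk-tissue library. Grik3, a kainate receptor subunit, measured 33.7, 33.6 and 23.1 CPM in the FC pools, against 126, 90.6 and 89.3 CPM in bulk tissue and fell. These were the only calls among 18 ionotropic glutamate receptor subunits, whose median was 0.05, and -0.21 with library size alone, where 1 of them rose. None of 7 metabotropic receptors had a call, with 2 at an unadjusted p below 0.05 in edgeR's test and none called by DESeq2. Grm5 and Grm3 also passed after adjustment (adjusted p = 0.0077 and 0.032 from edgeR). Their log2 fold changes of 0.83 and -0.98 were under the 2-fold limit and in opposite directions. Of 14 GABA-A receptor subunits, Gabra3 rose by 1.10 and Gabrg1 fell by 2.86. Each is 7.14% of that list, against 4.27% enriched and 8.92% de-enriched of all tested genes.

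On the presynaptic side 5 of 32 genes of the release machinery rose (15.6%, against 4.27% of all tested genes) and none fell. Bsn and Pclo encode Bassoon and Piccolo, the giant scaffolds of the active zone. Bsn measured 2280.4, 2266 and 2203 CPM in the FC pools, against 936, 733 and 912 CPM in bulk tissue (1.65 on the log2 scale, SE 0.12, edgeR adjusted p = 0.00019). Pclo measured 1799, 2327 and 1803 CPM in the FC pools, against 816, 706 and 894 CPM in bulk tissue. For both, pool levels were at least 2-fold above every bulk-tissue level. Erc2, a further active-zone scaffold, rose by 1.17. The other members that rose, Snap25 and Sv2b, are in the pan-neuronal and excitatory lists as well. Of 22 postsynaptic density scaffolds, 4 rose (18.2%) and none fell, with the same count under library size alone. They were Dlgap2, Cnksr2, Baiap2 and Bai1, at log2 fold changes of 1.40, 1.27, 1.28 and 1.31. Nptxr, the receptor partner of Nptx2, and Npcd rose by 1.76 and 1.75, but these overlapping genes had nearly the same counts, so which of them was measured is uncertain.

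The proteasome degrades ubiquitin-tagged proteins, and 10 of its 36 tested subunits rose while 1 fell, with a median of 0.74. These are 27.8% and 2.78%, against 4.27% and 8.92% of all tested genes. With library size alone 2 rose, with behavior as a term none, and leaving out single libraries gave 2 to 12. Psma5, a ring subunit of the core particle, measured 130.4, 130.3 and 159 CPM in the FC pools, against 73.1, 93.5 and 74.1 CPM in bulk tissue, and Psma2, another, 91.6, 104 and 98.3 CPM in the pools, against 52.9, 58.2 and 42.6 CPM in bulk tissue. Psmd3, a lid subunit, measured 109, 51.4 and 83.98 CPM in the FC pools, against 31.8, 29.9 and 28.5 CPM in bulk tissue. Psmc3, an ATPase of the base, was highest in FC40 at 204 CPM and rose by 1.71. The member that fell, Psmb11, is a thymus-specific subunit and belongs to the repeat-bearing genes described further on.

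Of 24 heat shock proteins and chaperonins, 3 rose and none fell, with a median of 0.76. Hsph1, an Hsp110 that recharges Hsp70, measured 1149, 1316 and 942 CPM in the FC pools, against 299, 295 and 335 CPM in bulk tissue. Its lowest pool was well above the highest bulk-tissue library (2.14 on the log2 scale, SE 0.15, edgeR adjusted p = 0.00018). Hspa4, of the same family, and Hsf2, a heat shock factor, rose by 1.13 and 1.35. Atf4 and Atf6, transcription factors of endoplasmic reticulum stress, rose by 1.40 and 1.59, as 2 of 23 genes of that list, and 1 of the 23 rose with library size alone.

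Lists of basic metabolism had few calls. None of 79 oxidative phosphorylation subunits, 36 aminoacyl-tRNA synthetases or 20 genes of glycolysis had a call in edgeR's test, with medians of 0.19, 0.21 and 0.56. At an unadjusted p below 0.05 there were 14, 4 and 13 of them, and DESeq2 called 0 subunits, 2 synthetases and 1 glycolysis gene. Some subunits and glycolysis genes had an adjusted p below 0.05 with a difference under 2-fold. Among them were Gapdh and Aldoa of glycolysis (log2 fold changes 0.95 and 0.74, adjusted p = 0.0032 and 0.0056 from edgeR). Ndufa12 was such a subunit (log2 fold change 0.78, adjusted p = 0.028 from edgeR). The medians of the subunits and synthetases were -0.07 and -0.05 with library size alone. Of 81 cytosolic ribosomal proteins none rose and 7 fell, with a median of -0.31. These 7 are 8.64%, close to the 8.92% of all tested genes that were de-enriched. Rpsa, a protein of the small subunit, measured 30.5, 20.3 and 22.9 CPM in the FC pools, against 94.7, 82.7 and 92.3 CPM in bulk tissue, and Rplp1, of the large subunit stalk, 54.3, 40.2 and 47.04 CPM in the pools, against 169.9, 139 and 104 CPM in bulk tissue. All pools were below all bulk tissue for both, and the list summed to 4441 to 5626 CPM in the pools and 7248 to 8639 CPM in bulk tissue. Rpl7l1, the member of lowest p, is in that sum at 87.9 to 105 CPM in the pools and 555 to 628 CPM in bulk tissue. It fell by 2.40 and belongs to the repeat-bearing genes described further on.

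Of 24 genes of cholesterol synthesis and uptake, Fdft1, which makes squalene, rose by 1.17, and Idi1 and Sc4mol fell by 1.88 and 1.35. These are 4.17% and 8.33%, close to the 4.27% and 8.92% of all tested genes. Of 22 motor proteins, Kif5a, a neuronal kinesin heavy chain, had the one call, with 391, 383 and 572 CPM in the FC pools, against 1243, 1157 and 1434 CPM in bulk tissue. Kif5a fell and is 4.55% of that list, under the 8.92% of all tested genes, while the median of the list was 0.47. Of 20 circadian clock genes, Npas2 rose by 1.39 and Per3, whose exons hold 16 bases of the repeat described further on, fell by 1.51. Each is 5% of the clock genes, against 4.27% enriched and 8.92% de-enriched of all tested genes. Among 40 splicing and RNA-binding proteins 6 rose, and none of the 40 with library size alone. They include Rbfox3, Elavl3 and Elavl4 of neurons and Mbnl2, at 1.15, 1.18, 1.17 and 1.17. Rbfox3, Elavl3 and Elavl4 are in the pan-neuronal list as well. Qk, the quaking protein of glia, measured 35.01, 14.7 and 53.9 CPM in the FC pools, against 416, 499 and 407 CPM in bulk tissue and fell by 3.41.

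**Figure D3:**
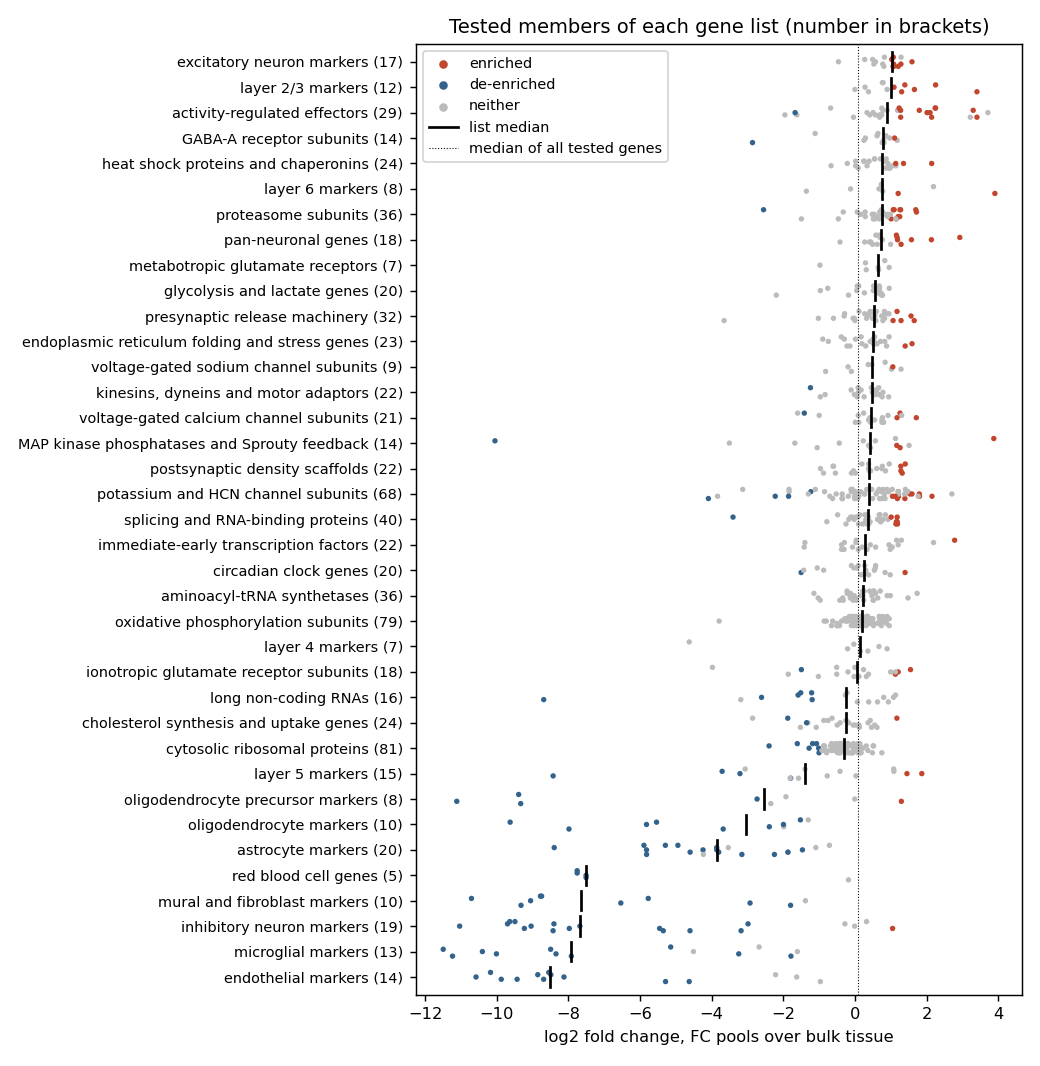
Log2 fold change of the FC pools over bulk tissue (horizontal axis) for the members of the gene lists with more than 1 tested member, 1 point for each gene in the color of its call, with a bar at the list's median and a dotted line at the median of all tested genes (0.08). Excitatory neuron markers, layer 2/3 markers and effectors have the highest medians (1.02, 0.99 and 0.89), and endothelial markers the lowest (-8.52).

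Interneuron transcripts were near the limit of detection in the pools, with exceptions. Of 19 tested inhibitory neuron markers 15 fell and 1 rose, with a median of -7.68. Gad1, which makes GABA, had 0.0587, 0.300 and 0 CPM in the FC pools, against 94.9, 102 and 85.8 CPM in bulk tissue. Gad2, its sister enzyme, measured 32.9, 37.01 and 36.7 CPM in the FC pools, against 386, 386 and 389.6 CPM in bulk tissue. Gad2 was thus present at an even level in the pools where Gad1 had 5 counts in all, and was 9.07-fold lower than in bulk tissue (-3.18 on the log2 scale, SE 0.15, edgeR adjusted p = 7.4e-05). Slc32a1, the vesicular GABA transporter, had 1 count over the pools and 666 in bulk tissue. Cck, a peptide of interneurons that excitatory neurons also express, was the member that rose, by 1.05. The other 18 markers summed to 185 to 235 CPM in the pools and 1380 to 1423 CPM in bulk tissue.

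Markers of glia, vessels and blood fell in the same comparison. The numbers were 15 of 20 astrocyte, 8 of 10 oligodendrocyte, 4 of 8 oligodendrocyte precursor, 10 of 13 microglial, 11 of 14 endothelial, 9 of 10 mural and fibroblast and 4 of 5 red blood cell genes. The globin genes among the last come in pairs with identical counts. The median of the microglial list was -7.92 (-7.40 with members at 0 placed at their bound), and that of the endothelial list -8.52 (-7.73 likewise). Laptm5, a lysosomal gene of microglia, and C1qb, a complement gene, had no count in any pool and were at least 459-fold and 376-fold lower. Microglial sums were 14.2 to 59.0 CPM in the pools and 449 to 472 CPM in bulk tissue.

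Astrocyte genes were less far down than microglial and endothelial genes, with a median of -3.86. Medians of oligodendrocyte and oligodendrocyte precursor markers were -3.04 and -2.54, so this was not particular to astrocytes. Slc1a2, the glutamate transporter of astrocytes, measured 1183, 839 and 1368 CPM in the FC pools, against 5818, 7009.8 and 6509 CPM in bulk tissue. Glul, glutamine synthetase, measured 94.5, 82.8 and 109 CPM in the FC pools, against 1587, 1706 and 1522 CPM in bulk tissue, while Gfap, the astrocyte filament, had 1 count in each pool. Slc1a2 was thus 4.76-fold lower and Glul 13.98-fold lower, with transcripts of both still well above the floor in every pool. The list summed to 1894 to 2394 CPM in the pools and 11746 to 13158 CPM in bulk tissue. Ptgds, prostaglandin D synthase of meninges and glia, measured 0.999, 4.65 and 0.543 CPM in the FC pools, against 1166, 1056 and 1223 CPM in bulk tissue, so it too was far below the tissue in every pool. Tnr, tenascin-R, listed as an oligodendrocyte precursor marker, rose by 1.29. The part of RNA from other cells in the values of the pools was not tested.

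**Figure D4:**
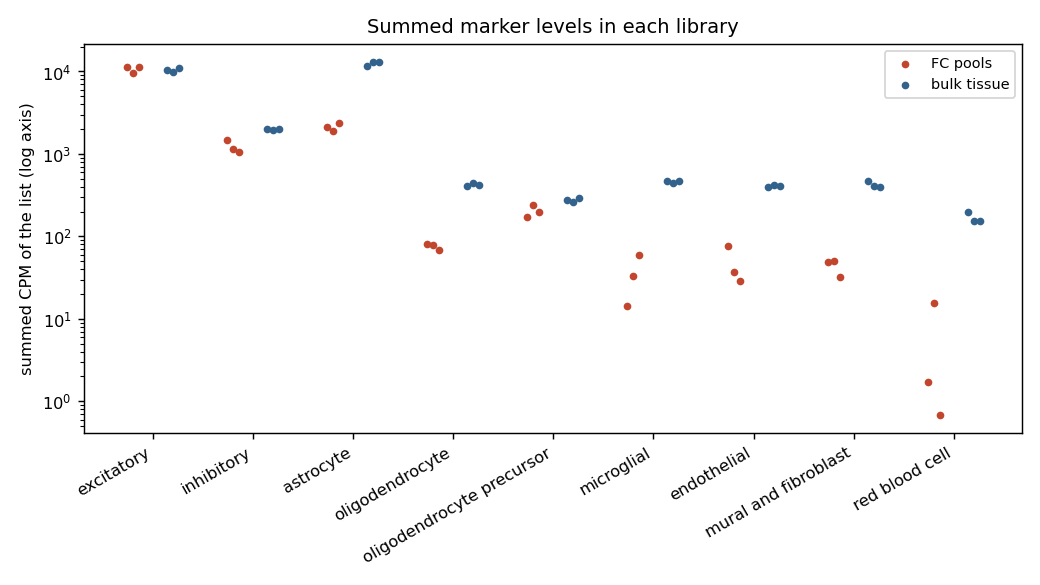
Summed CPM (vertical log axis) of the tested members of 9 marker lists in each FC pool (left of each pair) and each bulk-tissue library (right). Sums of excitatory neuron markers overlap between the groups, and the other 8 sums are lower in every pool than in every bulk-tissue library.

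Of 16 tested long non-coding RNAs 6 fell and none rose. Malat1, a nuclear RNA and the most abundant transcript of the bulk tissue, measured 4212, 2756 and 4337 CPM in the FC pools, against 27128, 27708 and 27802 CPM in bulk tissue (-2.61 on the log2 scale, SE 0.16, edgeR adjusted p = 0.00010). Meg3, an imprinted nuclear RNA, measured 1105, 659 and 1085 CPM in the FC pools, against 3438, 3166 and 3654 CPM in bulk tissue. Snhg11 varied least, with 853, 852 and 862 CPM in the FC pools, against 2440.4, 2411 and 2292 CPM in bulk tissue. Both were lower in every pool than in any bulk tissue. Neat1, the scaffold of paraspeckles, had 1 count over the pools and 359 in bulk tissue, and was lower by a factor of 644 with a 95% counting interval of 115 to 25521, which covers counting error only. The exons of Snhg11 hold 16 bases of the repeat described below. Kcnq1ot1 and Miat fell by 1.20 and 1.52. No gene model matched Kcnq1ot1, so its exons were not searched for the repeat.

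Many genes shared the profile of Malat1 over the libraries, among them genes not known for a role in cortex. Ctcfl, a testis relative of CTCF, measured 149, 138 and 161 CPM in the FC pools, against 1152, 1039.9 and 1191 CPM in bulk tissue. In total 55 genes with at least 100 CPM in bulk tissue had a profile within a distance of 0.5 of that of Ctcfl on centered log2(CPM + 1), and all 55 fell, at log2 fold changes between -2.99 and -2.32. They include Xcr1, a chemokine receptor, Spc24, a kinetochore gene, Chrnb4, a nicotinic receptor subunit, Psmb11, and Rpl7l1, a relative of a ribosomal protein. Psmb11 measured 92.3, 80.7 and 93.7 CPM in the FC pools, against 682, 589 and 609 CPM in bulk tissue, and Xcr1 71.7, 59.2 and 73.3 CPM in the pools, against 568, 512 and 552 CPM in bulk tissue. The set was chosen after its values were seen and by the contrast itself, so its fold change is a description. The 55 genes held 0.632% to 0.873% of all counts in the pools and 5.52% to 5.89% in bulk tissue.

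Of the 53 of these genes with a gene model in GENCODE M1, 44 held one and the same stretch of 24 bases in an exon, on either strand. The stretch is found 39680 times in the mm9 genome and belongs to B1, a short interspersed repeat of rodents that derives from 7SL RNA. Windows of 30 bases on the gene's strand, with the stretch in capitals, are shown because unrelated genes carry it, in both orientations. They lie at chr19:5802010-5802039 (Malat1, minus), chr2:172919729-172919758 (Ctcfl, minus), chr4:149478996-149479025 (Gpr157, plus), chr9:123764210-123764239 (Xcr1, minus) and chr14:55246392-55246421 (Psmb11, plus) on mm9.
Malat1: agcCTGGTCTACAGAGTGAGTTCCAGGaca
Ctcfl: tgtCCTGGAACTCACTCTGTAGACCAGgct
Gpr157: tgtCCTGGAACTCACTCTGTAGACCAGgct
Xcr1: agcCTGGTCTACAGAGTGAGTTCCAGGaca
Psmb11: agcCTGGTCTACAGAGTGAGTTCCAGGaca
Malat1, Xcr1 and Psmb11 carry the reverse complement of the stretch in Ctcfl and Gpr157.

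The stretch was then looked up in every tested gene. Of 385 genes that hold it in an exon, 121 were de-enriched (31.4%) and 5 enriched (1.30%), with a median log2 fold change of -0.62. Of 11790 genes with a gene model but without it, 954 were de-enriched (8.09%) and 519 enriched (4.40%), with a median of 0.09. Outside the 55 genes of the profile, 77 of 341 genes with the stretch were de-enriched (22.6%). The share was 31.0% of 203 genes with the orientation of Ctcfl and 32.8% of 177 genes with the other. Among genes with at least 100 CPM in bulk tissue, 81 of 137 with the stretch and 185 of 2058 without it were de-enriched (59.1% and 8.99%). Of 280 genes de-enriched at log2 fold changes between -3 and -2, 71 held it, against 4 of 363 below -3.5. The stretch was picked as the commonest 24 bases in exons of the 55 genes, all of which fell. Apart from the 22.6%, the shares of genes with the stretch and the count of 71 include genes of the profile. They are therefore partly fixed by that choice. Without the genes that hold the stretch, 994 genes were de-enriched and 528 enriched, a count added after the data had been seen. The authors kept uniquely aligned reads, and whether reads from B1 copies elsewhere were counted at these genes was not tested. Levels of genes with the stretch, Malat1 included, are uncertain as measures of those genes.

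**Figure D5:**
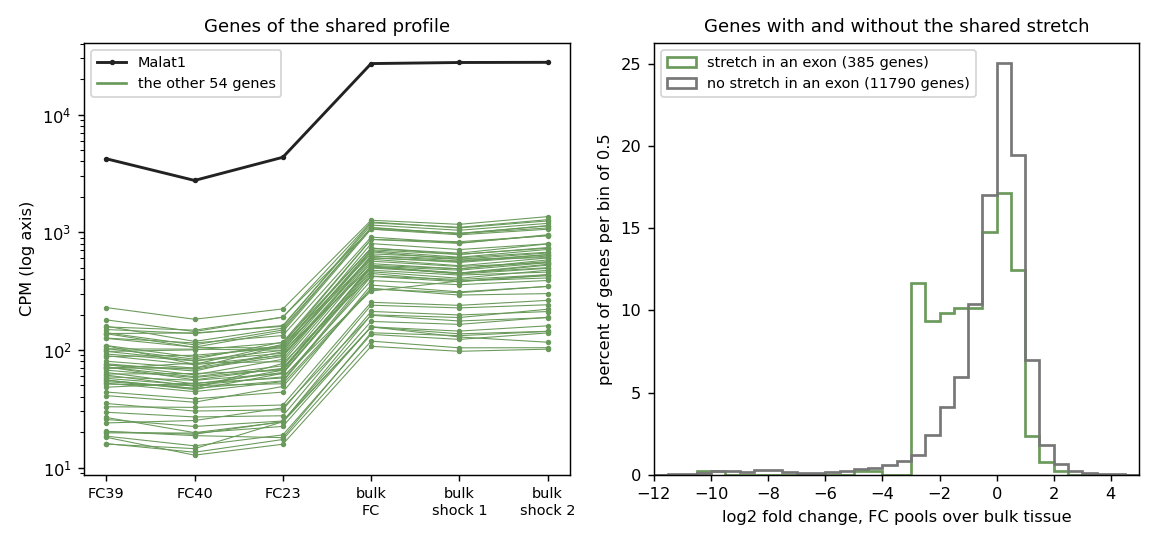
Left, level in CPM (vertical log axis) of the 55 genes of the shared profile in the 3 FC pools and 3 bulk-tissue libraries, 1 line for each gene, with Malat1 in black. Right, percent of genes in each bin of log2 fold change (horizontal axis) for the 385 genes with the 24-base stretch in an exon and the 11790 without it, with a larger share of the first between -3 and -1. Of the 385 genes, 44 belong to the shared profile, from which the stretch was picked.

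The pools differed from each other far more than the bulk-tissue libraries did. The median SD of log2(CPM + 1) over tested genes was 0.56 among pools and 0.16 among bulk-tissue libraries. At mean levels under 2 on that scale it was 0.81 and 0.27, between 2 and 4 it was 0.91 and 0.21, and above 8 it was 0.22 and 0.09. Across genes, which are not independent replicates, Pearson's r was 0.853 to 0.871 between pools and 0.983 to 0.986 between bulk-tissue libraries. Lars2, the mitochondrial leucyl-tRNA synthetase, was among the 10 most abundant transcripts of the pools and measured 16055, 6830.3 and 24523 CPM in the FC pools, against 8625, 6228 and 13781 CPM in bulk tissue. It had no call.

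Few genes were high in 1 pool and very low in both others. Rhbdl1, a rhomboid-like protein, was the one gene with at least 50 CPM in 1 pool and at most 1 CPM in both others, with 0.411, 0.0751 and 68.4 CPM in the FC pools, against 5.96, 6.80 and 8.16 CPM in bulk tissue. At limits of 20 and 0.5 CPM 27 genes met the rule, 17 in FC23, 9 in FC39 and 1 in FC40, and no gene met either rule among bulk-tissue libraries. In all, 68 tested genes had no count in any FC pool, of which 66 were de-enriched, and 1 had none in bulk tissue. A count of 0 over the 52431966 counts of the pools allows a level of up to 0.0572 CPM, a limit that covers counting error only.

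The FC pools were not told apart from the shock-only Arc-dVenus+ pools by the same test. No gene of 12493 had an adjusted p below 0.05 in edgeR's quasi-likelihood test (0%), with 793 below 0.05 before adjustment, while DESeq2 called 147 genes, edgeR's exact test 7 and voom 0. With 3 and 2 pools this does not show that they are alike.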

How the data were processed

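Libraries of manually sorted Arc-dVenus+ cells and of bulk TeA tissue were made with an amplifying cDNA kit. With RUM, the authors aligned the reads to mm9. They kept those aligned uniquely and counted 1 transcript variant of each gene. The deposited table gives the raw counts and, beside them, CPM values that the authors scaled to the library total. Its columns of fold changes and p-values for all Arc-dVenus+ libraries over bulk tissue, made with edgeR, were not used. Use of strand in counting is not given in the sources used here.

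The FC pools (n = 3) were compared with bulk tissue (n = 3) by the quasi-likelihood test of edgeR 4.0.16 on the counts, with TMM scaling. P-values were adjusted by the Benjamini-Hochberg method over all 12493 genes that had a summed CPM of 20 or more. DESeq2 1.42.0, limma 3.58.1 and R 4.3.3 were also used. Tables and intervals came from Python 3.11.15 (pandas 2.3.3, scipy 1.17.1 and numpy 2.4.6) and plots from matplotlib 3.10.9. All tests were first tested on simulated data. CPM in the text are not TMM-scaled, while fold changes are. Totals ran from 7110598 to 22089634 counts. A group with no count was read as at most 3 counts, and ratios on 1 to 3 counts carry exact 95% Clopper-Pearson intervals, both for counting error only. Replicate libraries were compared, and none was a copy of another.

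The comparison and the 38 gene lists were chosen with earlier results of these data known, and lists are described by counts and medians with no set test. Some genes are in several lists, such as Snap25, Sv2b, Baiap2, Grin2a and Kcnv1, so the counts of lists are not independent. The rule for named genes took, of genes whose groups were separate and whose higher group averaged 50 CPM or more, the 12 most enriched and 12 most de-enriched. It added the 4 members of lowest p in each list, genes high in 1 pool alone, the 10 most abundant genes of the pools and markers that the study names. Others were chosen after their values were seen, and some genes that the rule took are not reported here. Alternatives were other scalings, minimum levels and tests, each library left out in turn, all 8 libraries, behavior as a term, and the bulk tissue of either behavior alone. Exons are from GENCODE M1 on mm9, to which 14990 genes matched by symbol, and promoters are from RefSeq on GRCm38.p6. Names of 21 genes had been turned into dates.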

Additional observations from a re-analysis of the deposited data

How the results depend on the processing

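A term for behavior leaves the tissue of the FC mouse as the only reference for the pools. The counts of 533 enriched and 1115 de-enriched genes changed with the libraries and terms of the fit. They were 110 and 458 with behavior as a term, 22 and 105 against the tissue of the FC mouse alone, 244 and 542 against the shock-only tissue alone, and 346 and 719 with all 8 libraries in the fit. At an adjusted p below 0.01 they were 278 and 622. With library size alone 208 genes were enriched. Without a CPM minimum 1995 genes were de-enriched, and with at least 1 CPM in 3 libraries 1687. Leaving out single libraries gave 244 to 795 enriched and 542 to 1553 de-enriched genes. DESeq2 gave 744 and 1459, the exact test 657 and 1365, voom 573 and 1028, and DESeq2's size factors 559 and 1098. Without genes that hold 16 bases of the B1 stretch, an alternative chosen after seeing the data, 521 and 946 remained. For FC against shock-only pools the count of 0 was 147 with DESeq2 and 7 with the exact test, and 0 to 1 with a library left out. Of 124 called genes named in the text, none changed direction, and 89 were still called with library size alone, 123 with DESeq2, 63 with behavior as a term and 31 against the FC tissue alone. Genes high in 1 pool alone numbered 27 with limits of 20 and 0.5 CPM, in place of 1. Directions turned for genes without a call. The log2 fold change of Fos was -0.61 with voom and -0.71 to 1.15 with a library left out, lowest without FC23. The log2 fold change of Junb was -0.42 to 1.36 with a library left out, and the log2 fold change of Rhbdl1 was -2.28 with voom and -4.51 to 2.59 with a library left out, both lowest without FC23. The causes were not tested. No paired analysis was possible because the labels give the pools and the bulk tissue no shared replicate numbers. Depth limits transcripts under 0.0572 CPM over the pools.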

Other observations

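Genes of Nogo signaling, in which myelin proteins bind receptors that limit the growth of axons and spines, were looked at after their values had been seen. Lingo1, a co-receptor, measured 1534, 1323 and 1452 CPM in the FC pools, against 427, 368 and 454 CPM in bulk tissue. Rtn4r, the Nogo receptor, measured 140.3, 212 and 156 CPM in the FC pools, against 54.4, 49.3 and 54.3 CPM in bulk tissue, and its relative Rtn4rl1 378, 439 and 515 CPM in the pools, against 132, 127 and 131 CPM in bulk tissue. All 3 genes rose, by 2.05, 1.95 and 2.04 on the log2 scale (adjusted p = 7.9e-05, 0.0012 and 0.00028 from edgeR), with no overlap of the groups. Rtn4rl2 rose by 1.45, and Omg, a ligand, had a log2 fold change of 0.97, just under the limit. Ngfr, the neurotrophin receptor that can pair with them, measured 4.35, 3.98 and 5.43 CPM in the FC pools, against 14.9, 16.96 and 18.4 CPM in bulk tissue and fell.

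Mtap1b, a microtubule-associated protein of growing axons, was among the 10 most abundant transcripts of the pools and measured 6125, 6682 and 4953 CPM in the FC pools, against 2556, 2375 and 2674 CPM in bulk tissue. It rose by 1.49, and Ywhaz, an abundant 14-3-3 adaptor, had separate groups under the 2-fold limit (log2 fold change 0.80).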
